A study of Rattus norvegicus with 8 samples.

Results

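MicroRNA precursor loci were examined in mRNA sequencing of the rat striatum after self-administration of methamphetamine (METH) or saline. A locus was included when its symbol marked a microRNA gene and its raw reads, summed over all 8 rats, reached 10, with Mir132 and Mir212 left out. Of 454 listed loci, 67 (14.8%) met this rule, so the members were selected on their read counts in these rats. The samples were whole striatum from male wild-type Sprague-Dawley rats, 4 that worked for METH (0.05 mg/kg per infusion, 2 h a day for 16 days) and 4 that underwent the same procedure with saline. Both groups had food training and jugular catheters, and no rat without surgery was included. The study's methods state that 4 rats per group were chosen for plasma sampling, out of larger groups, by stable lever pressing over the last days. The rats are separate animals, so the spread between them includes biological differences.

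MicroRNA genes are transcribed as long primary transcripts, many of them capped and polyadenylated, and many lie inside introns or exons of other genes. Drosha with its partner Dgcr8 cuts a hairpin precursor out of the primary transcript in the nucleus, Xpo5 exports it, Dicer1 trims it to the mature microRNA, and Argonaute proteins carry the mature strand to target mRNAs. Poly(A) capture followed by sequencing of long fragments does not record the mature molecule. Reads on such a locus come from primary or host transcripts, and no value below is a level of a mature microRNA.

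The mature sequences of the loci with the most reads are shown because these loci carry most of the signal, together with the hairpins of Mir770 and Mir1188, the locus with the most reads and the only member whose groups did not overlap. Sequences are from RefSeq (assembly GRCr8) and run 5′ to 3′. In mature sequences the capitals mark the seed, bases 2 to 8, which leads the pairing with targets, and in hairpins they mark the annotated mature arms. The Mir770 hairpin lies at chr6:134298084-134298159 on the plus strand, inside the noncoding gene Meg3, and the Mir1188 hairpin at chr6:134348153-134348234 on the plus strand.
Mir770 hairpin: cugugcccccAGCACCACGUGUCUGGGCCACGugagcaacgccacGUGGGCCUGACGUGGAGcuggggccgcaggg
Mir1188 hairpin: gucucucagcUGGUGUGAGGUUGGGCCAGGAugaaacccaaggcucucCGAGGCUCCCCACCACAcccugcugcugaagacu
miR-770-5p: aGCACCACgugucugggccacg
miR-770-3p: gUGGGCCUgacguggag
miR-1188-5p: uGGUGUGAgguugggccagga
miR-1188-3p: cGAGGCUCcccaccaca
miR-3102: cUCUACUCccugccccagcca
miR-760-3p: cGGCUCUGggucugugggga
miR-6315: uCUGGACAggacaggcccugagc
miR-22-3p: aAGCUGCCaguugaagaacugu
miR-22-5p: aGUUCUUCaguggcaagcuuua
miR-568: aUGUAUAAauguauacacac
miR-3064-3p: uUUGCCACacugcaacaccuuaca
miR-1896: uGGUGGGUgaggaggagg
miR-207: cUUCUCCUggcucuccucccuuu
miR-6333: uAGGCUGGacuugaacagcccgc

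None of the loci listed above shares a seed with another member among the sequences found. RefSeq gave 97 mature sequences for 59 of the 67 members, with 87 different seeds. Members without an entry included Mir3577, Mir3072, Mir124-1, Mir124-2 and Mir124-3. Of the 8 seeds held by more than 1 member, GAGGUAG is the let-7 seed and belongs to Mirlet7b, Mirlet7c-2 and Mirlet7i. The seed AAAGUGC belongs to Mir106b and Mir93, and AUUGCAC to Mir25 and Mir92b. Mir138-1 and Mir138-2 give the same 5p arm, and so do Mir3597-1, Mir3597-2 and Mir3597-3, so the mature product would not tell the copies apart where the primary transcripts can.

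The total counts were 18135939 to 21211920 per rat over 17337 listed genes. All 10 markers of striatal projection neurons were measured, at a summed 14600 to 19500 CPM (reads scaled to a common library size) in every rat. The summed level of 12 activity-induced genes was 588 to 1080 CPM in saline rats and 1660 to 2500 CPM in METH rats, and 9 of these genes were called higher in METH rats at a false discovery rate (FDR) below 0.05 (edgeR quasi-likelihood test, Benjamini-Hochberg adjustment). Saline rat 1 held 75.3 CPM of the excitatory cortical neuron markers, against 3.35 to 13.5 CPM in the other rats. Thalamic and hypothalamic markers summed to 79.4 CPM in METH rat 4 and 48.1 CPM in saline rat 2, against 13.5 to 21 CPM in the other rats. Choroid plexus markers summed to 4.06 to 5.6 CPM in saline and 6.09 to 8.91 CPM in METH rats. The part of these markers in the values below was not tested. In whole tissue, fewer cells of a type and less RNA per cell cannot be told apart.

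Most microRNA loci gave no reads. In all 8 rats 311 loci were at 0, 76 had 1 to 9 reads, and the members held 12364 of the 12642 reads on all loci (97.8%). Mir770 alone held 18% of the members' reads, the 6 loci with the most reads 59.4% and the 12 with the most 77.6%. The median member had 45 reads over the 8 rats. At the edge of the rule, Mir142 and Mir339 had 10 reads each and were included, and Mir26a, Mir3546 and Mir628 had 9 each and were not. Reads were found in 54 to 64 members per rat, and in every rat for 40 members. A count of 3 reads corresponded to 0.142 to 0.169 CPM, a floor that covers counting error only.

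The order by reads was Mir770, Mir3102, Mir760, Mir6315, Mir22, Mir568, Mir3577, Mir3064, Mir1896, Mir207, Mir6333 and Mir3072. Per length of the annotated locus (59 to 137 bp in GRCr8), Mir770 stayed first at a mean of 188 CPM per kb, followed by Mir760 at 88.6 CPM per kb. The next 3 were Mir22 at 61.5, Mir3102 at 61.3 and Mir6315 at 60.7 CPM per kb, values closer together than the spread between rats. Fragments on so short a locus also cover its surroundings, so a per-length level of a locus is no more than an ordering. The plot of the 12 loci with the most reads shows the spread of Mir770 in METH rats and the narrow band of Mir22.

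**Figure D1:**
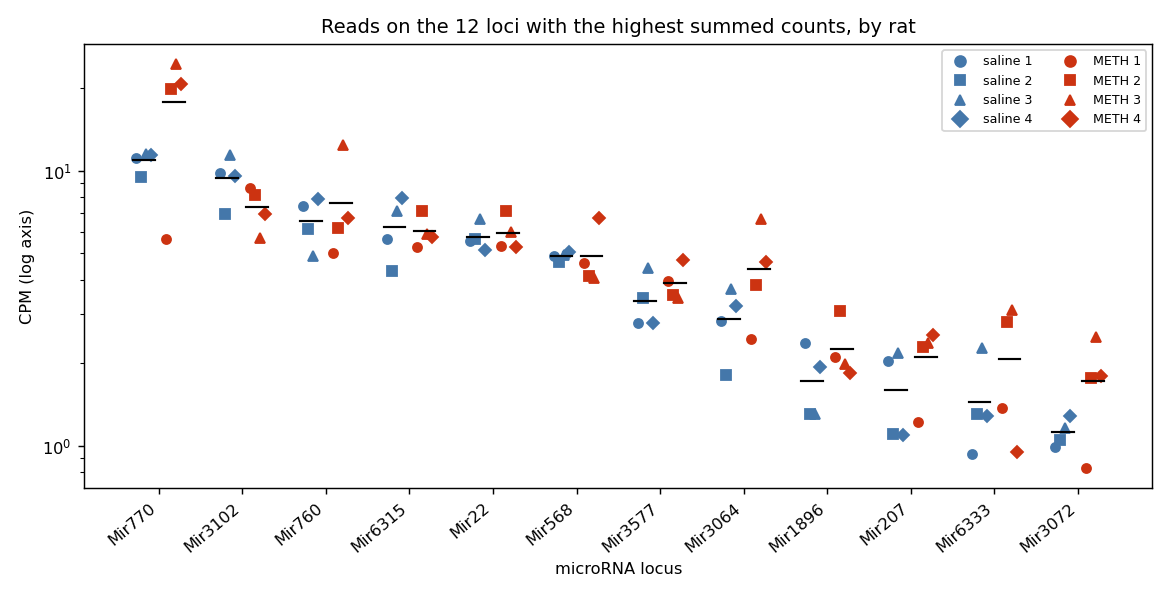
CPM (log axis) of the 12 microRNA loci with the highest summed counts, 1 point per rat, blue for saline and red for METH, with rats 1 to 4 of each group drawn with separate symbols and group means as black bars. Mir770 of METH rat 1 (5.63 CPM) lies below all saline rats and the other METH rats above them, while no locus shown has groups that do not overlap.

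METH and saline rats were then compared across all genes. None of the 23 members that passed the default expression filter of edgeR was called at an FDR below 0.05, where 0.516% of all genes tested were. Because 44 members did not pass that filter, all genes with a summed count of 10 or more were tested in a second fit, which holds all 67 members. None of them was called there either, against 0.474% of all genes, and the lowest FDR of a member was 0.407. Unless another fit is named, the fold changes of members and of overlapping genes below come from this second fit. Values for Dlk1, for the processing and effector genes and for the marker lists come from the fit with the default filter.

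In that fit 4 members had an unadjusted p under 0.05 with a higher level in METH rats (Mir770, Mirlet7i, Mir7a-1 and Mir1188), where 6.2% of all genes did. A single member, Mir2964, had one with a lower level, where 4.71% of all genes did. With the default filter, Mir770 was the only member with an unadjusted p under 0.05. DESeq2, the likelihood ratio and exact tests of edgeR and limma-voom called 0 of the 67 members as well, with 3, 7, 5 and 2 members at an unadjusted p under 0.05. DESeq2 gave no adjusted value for 36 of the members. The lowest adjusted p of a member under any of them was 0.0592, at Mir2964 in the likelihood ratio test. That locus met the rule through 14 saline reads alone, 11 of them in saline rat 3, so this value is no support.

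Over the members, 41 log2 fold changes (METH against saline) were positive and 26 negative, from -4.81 to 1.84, with a median of 0.14 against -0.0049 over all genes tested. The standard errors had a median of 0.77 on the log2 scale, against 0.13 over all genes, so a difference at a single member was measured less precisely than at a typical gene. The errors tended to narrow with the read number, from 1.90 at Mir2964 with 14 reads to 0.18 at Mir22 with 926 reads. Read number alone did not order them, since Mir770 with 2231 reads had 0.30 and Mir142 with 10 reads had 1.51. All 4 METH rats lay above all 4 saline rats in 1 member, Mir1188, and below them in none. Over all genes these shares were 3.5% and 2.53%. The 4, 1, 1 and 0 of 67 members in these counts are thus near or below the shares over all genes.

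**Figure D2:**
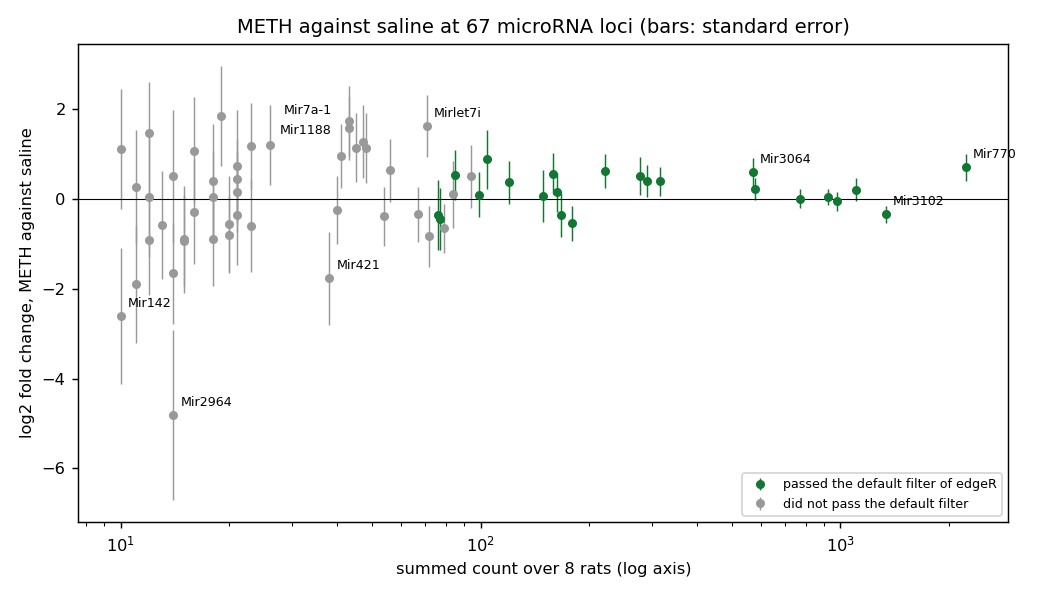
Log2 fold change of METH against saline (vertical axis) with its standard error at the 67 members, against the summed count over 8 rats (horizontal log axis). Green points passed the default expression filter of edgeR and grey points did not. Bars are wide below 100 reads, and the 8 loci with 500 reads or more lie between -0.35 (Mir3102) and 0.70 (Mir770).

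Mir770, the locus with the most reads, lies inside Meg3, a maternally expressed noncoding RNA of the imprinted Dlk1-Dio3 region. Its counts were 202, 190, 239 and 242 in saline rats 1 to 4 and 115, 419, 433 and 391 in METH rats 1 to 4. METH rat 1 had the lowest count of all 8 rats, and the other METH rats had the 3 highest. The level was 10.9 ± 0.948 CPM (SD, n = 4) in saline and 17.7 ± 8.26 CPM (SD, n = 4) in METH rats, a log2 fold change of 0.70 with a standard error of 0.30 (edgeR FDR 0.438). An exact permutation test over rats, two-sided, gave p = 0.314.

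The spread of Mir770 was almost all in the METH group. The chi-square of its counts per degree of freedom was 1.67 among saline rats, near the value of 1 that counting error alone gives, and 77.5 among METH rats. Without METH rat 1, the other METH rats averaged 21.7 ± 2.43 CPM (SD, n = 3). The log2 fold change was then 0.99 with a standard error of 0.14 (edgeR FDR 0.00512), so Mir770 was called in that fit. That rat is singled out for its low Mir770 value, so leaving it out widens the difference by construction and adds no support. Over all alternatives and each rat left out in turn, the FDR of Mir770 ran from 0.00512 to 0.778. METH rat 1 was no exception in the activity-induced genes, which summed to 2210 CPM there.

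Meg3 itself, listed in the counts as RGD1566401, had far more reads. Its counts were 6089, 4445, 6220 and 7007 in saline rats 1 to 4 and 6561, 10982, 10203 and 9464 in METH rats 1 to 4. METH rat 1, lowest of all rats in Mir770, lay among the saline rats in Meg3, and the other METH rats lay above all of them. Meg3 stood at 297 ± 52.1 CPM in saline and 480 ± 111 CPM in METH rats (SD, n = 4 each), a log2 fold change of 0.69 with a standard error of 0.16 (edgeR FDR 0.0894). The exact permutation test, two-sided, gave p = 0.0857.

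The call on Meg3 changed with the test and with that rat. Its log2 fold change was 0.84 with a standard error of 0.12 without METH rat 1 (edgeR FDR 0.00749). That rat had the lowest Meg3 count of the METH rats, so leaving it out raises the fold change by construction. DESeq2, the likelihood ratio test and the exact test also called Meg3 with all rats. In all, 4 of 19 alternatives and left-out rats called Meg3, with an FDR between 0.00265 and 0.302. The host gene and the locus overlap, and without the strand and overlap settings their reads cannot be assigned to separate transcripts.

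Set against the host, Mir770 had 3.32, 4.27, 3.84 and 3.45 reads per 100 Meg3 reads in saline rats 1 to 4. The METH rats 2 to 4 had 3.82, 4.24 and 4.13, within the saline range. METH rat 1 had 1.75, below all other rats, so there the locus was low also relative to its host. This ratio describes single rats and was not tested.

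**Figure D3:**
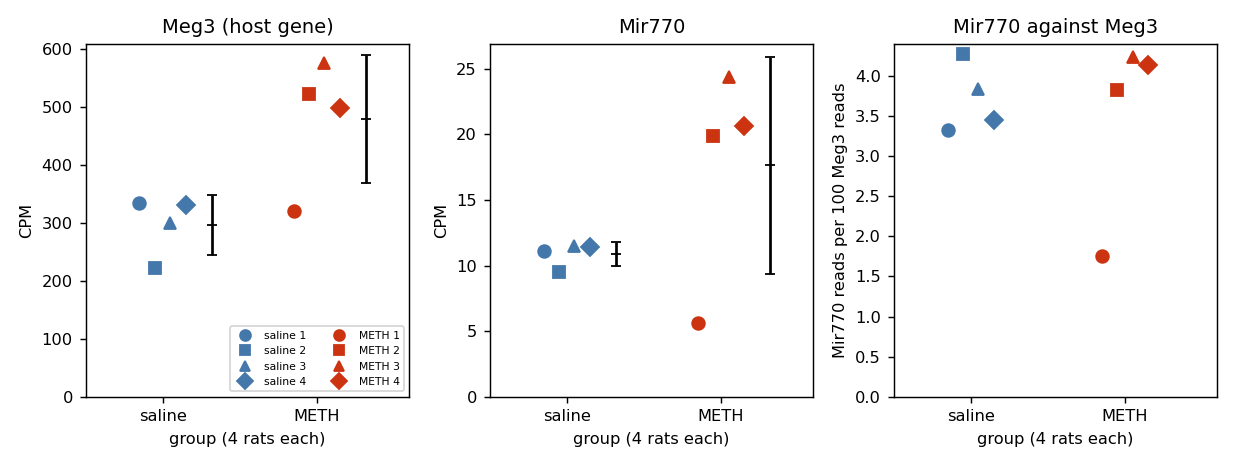
Meg3 level (left, CPM), Mir770 level (middle, CPM) and Mir770 reads per 100 Meg3 reads (right) in each rat, saline blue and METH red, with rats 1 to 4 drawn with separate symbols. Black bars give mean and SD of 4 rats. METH rats 2 to 4 lie above all saline rats in Meg3 and Mir770 but not in the ratio, and METH rat 1 has the lowest ratio (1.75).

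The Dlk1-Dio3 region on chromosome 6 holds one of the largest microRNA clusters of the mammalian genome, transcribed from the maternal chromosome along with Meg3. The GRCr8 gene table places 59 microRNA genes between Dlk1 and Dio3, all of them listed in the counts. Reads were found on 19 of them and 40 were at 0 in all rats. The 7 members from the region are Mir770, Mir431, Mir433, Mir1188, Mir496, Mir410 and Mir3072.

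The 6 cluster members other than Mir770 summed to 42, 41, 47 and 41 reads in saline rats 1 to 4 and 38, 68, 78 and 75 reads in METH rats 1 to 4. As in Mir770, METH rat 1 was lowest and METH rats 2 to 4 lay above every saline rat. The summed level was 2.14 ± 0.176 CPM in saline and 3.363 ± 1.11 CPM in METH rats (SD, n = 4 each). Values for the single loci follow, since the sum is carried by Mir3072 and Mir410.

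Mir3072 had 18, 21, 24 and 27 reads in saline rats and 17, 37, 44 and 34 in METH rats, with a log2 fold change of 0.61 ± 0.38 (SE, edgeR FDR 0.569). Mir410, whose 3p arm is among the better known products of the cluster, had 17, 12, 15 and 9 reads in saline and 9, 21, 16 and 21 in METH rats, a log2 fold change of 0.37 ± 0.48 (SE). In both loci METH rat 1 had the lowest or joint lowest count and the groups overlapped.

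Mir1188 had 1, 3, 3 and 4 reads in saline rats and 6, 6, 11 and 9 reads in METH rats. It was the only member with groups apart, METH rat 1 included. Its log2 fold change was 1.57 with a standard error of 0.70 (edgeR FDR 0.444), and its exact permutation p of 0.0286, two-sided, is the smallest that 70 labellings of 4 of 8 rats allow. Groups that do not overlap give this p by construction, so it adds no support beyond the separation itself. The level was 0.135 ± 0.0567 CPM in saline and 0.419 ± 0.161 CPM in METH rats (SD, n = 4 each). The saline mean lies below the floor of 3 reads (0.142 to 0.169 CPM), and the locus did not pass the default filter.

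Mir433 had 21 reads, Mir431 12 and Mir496 12 over all rats, with log2 fold changes of 0.72, 0.031 and 1.47 and standard errors above 1. Mir431 and Mir433 lie within Rtl1, a retrotransposon-derived gene that is expressed from the paternal chromosome. These counts were too low to set METH rat 1 apart. Dlk1, a protein-coding gene at the end of the region, ordered the rats otherwise than Meg3. It had 333, 238, 608 and 135 reads in saline and 144, 231, 142 and 289 in METH rats, a log2 fold change of -0.67 (edgeR FDR 0.503).

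**Figure D4:**
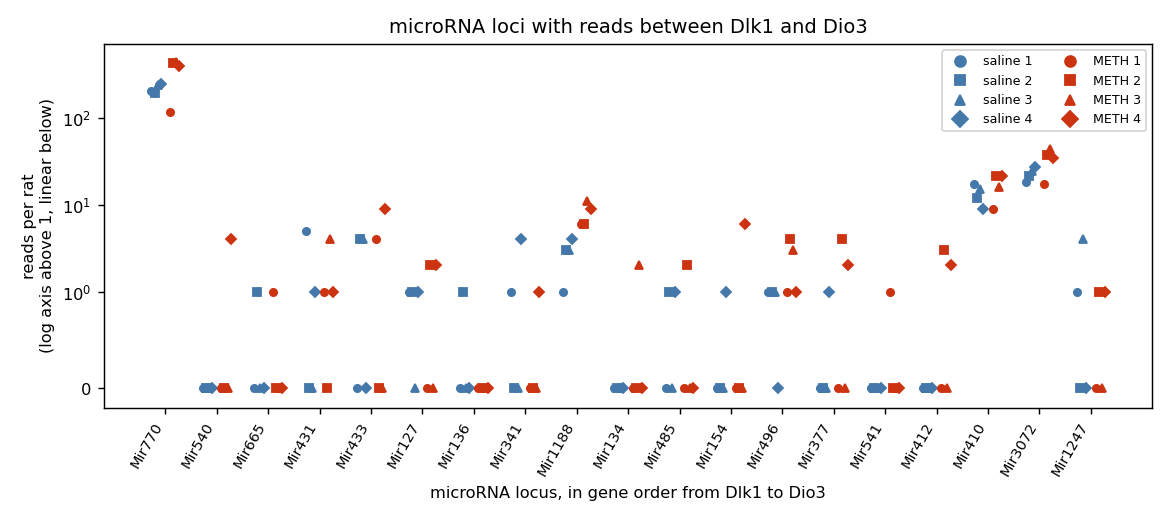
Reads per rat (log axis above 1, linear below) on the 19 microRNA loci between Dlk1 and Dio3 that had reads, in gene order, saline blue and METH red. Mir770, Mir3072 and Mir410 carry most reads, METH rat 1 (red circle) is at or near the bottom in these 3 loci, and in Mir1188 all METH rats lie above all saline rats.

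Beyond the cluster, no locus among the 12 with the most reads was called or had groups apart. Mir22, a microRNA abundant in many tissues, had 101, 113, 138 and 109 reads in saline and 109, 150, 106 and 100 in METH rats. Its log2 fold change was 0.047 ± 0.18 (SE), and its chi-square per degree of freedom was 1.5 in saline and 2.59 in METH rats. It was thus among the steadiest of the loci with many reads.

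Mir568, which lies inside the transcription factor gene Zbtb20, had 89, 93, 102 and 107 reads in saline and 94, 87, 72 and 128 in METH rats. The saline rats differed by less than counting error, with a chi-square per degree of freedom of 0.121, and the METH rats by more, at 6.21. Its log2 fold change of 0.0045 ± 0.21 (SE) changed sign under other scalings. Zbtb20 had 373 reads over the 8 rats, fewer than the 772 on the locus, and a log2 fold change of -0.30 ± 0.51 (SE). The strands of the locus and the gene were not compared.

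Mir3102, inside Arhgef17, had the most reads after Mir770. It had 179, 139, 236 and 202 reads in saline and 177, 171, 101 and 132 in METH rats, with overlapping groups. Its log2 fold change was -0.35 with a standard error of 0.19 (edgeR FDR 0.506), the lowest of the 8 loci with 500 reads or more.

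Mir760 had 135, 123, 101 and 167 reads in saline and 103, 130, 220 and 128 in METH rats. METH rat 3 held the highest value at 12.4 CPM, against 4.88 to 7.89 CPM in the other rats. The log2 fold change was 0.20 ± 0.26 (SE) with that rat and -0.134 without it. Mir6315, inside Vps51, lay between 4.3 and 7.94 CPM in all rats with a log2 fold change of -0.057 ± 0.21 (SE).

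Mir3064 lies inside Ddx5, which encodes an RNA helicase of the Drosha complex. It had 52, 36, 77 and 68 reads in saline and 50, 81, 118 and 88 in METH rats, a log2 fold change of 0.60 ± 0.31 (SE, edgeR FDR 0.497). METH rat 3 was highest, METH rat 1 lay among the saline rats, and the log2 fold change was 0.331 without METH rat 3. Ddx5 itself had 8888 to 12601 reads in saline and 9032 to 11472 in METH rats, with a log2 fold change of 0.032 ± 0.093 (SE). METH rat 3, highest for the locus, was the lowest of the METH rats for the host.

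The remaining loci among the 12 with the most reads had overlapping groups as well. The log2 fold changes were 0.22 for Mir3577 inside Tmem94, 0.39 for Mir1896, 0.40 for Mir207 and 0.51 for Mir6333, with standard errors of 0.24 to 0.42. Mir207 lies inside Dnaja1, a co-chaperone gene with a log2 fold change of 0.19 ± 0.081 (SE, edgeR FDR 0.429).

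The highest value was found most often in METH rats 3 and 4. Of the 19 members with 100 reads or more, METH rat 3 was highest in 7, METH rat 4 in 5 and METH rat 1 in 0, while METH rat 1 was lowest in 6. METH rat 3 also had the lowest scaling factor, 0.9563 against 0.9907 to 1.018 in the other rats. It had the fewest genes with reads, 13142 against 13333 to 13410. The part of these library traits in its values was not tested. How often each rat is highest or lowest was not counted over all genes, so no trait particular to these loci is shown. The summed level of all members was 72.71 ± 6.46 CPM in saline and 84.25 ± 16.9 CPM in METH rats (SD, n = 4 each), with METH rat 1 lowest of all at 60.28 CPM and METH rat 3 highest at 99.88 CPM. Without Mir770 the sums were 61.82 ± 5.52 and 66.59 ± 8.67 CPM, and the members outside the Dlk1-Dio3 region summed to 59.68 ± 5.45 and 63.23 ± 7.61 CPM. In the last sums, the METH value lay within 1 SD of the saline value, and METH rat 1, at 52.79 CPM, lay close to saline rat 2 at 51.78 CPM.

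Members with few reads had the most extreme fold changes. The 5 highest were Mir664-2 at 1.84, Mir7a-1 at 1.73, Mirlet7i at 1.61, Mir1188 at 1.57 and Mir496 at 1.47, on the log2 scale. Mirlet7i, a let-7 gene, had 4, 5, 5 and 4 reads in saline and 13, 4, 27 and 9 in METH rats, with a standard error of 0.69 (edgeR FDR 0.429). METH rat 3 held 27 of its reads, METH rat 2 was at the saline level, and the log2 fold change was 0.927 without METH rat 3.

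Mir7a-1, a neuronal microRNA gene inside Hnrnpk, had 2, 5, 1 and 2 reads in saline and 6, 4, 9 and 14 in METH rats. The groups overlapped through saline rat 2 and METH rat 2. Hnrnpk, an RNA-binding protein gene, had 5584 to 8638 reads per rat and a log2 fold change of -0.15 ± 0.081 (SE). Mir664-2 had 1, 2, 0 and 1 reads in saline and 0, 5, 7 and 3 in METH rats, a difference of a few reads. It met the rule through its METH reads, so its direction follows in part from how members were chosen. Mir496 also met the rule mainly through METH reads.

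The 5 lowest log2 fold changes were those of Mir2964 at -4.81, Mir142 at -2.61, Mir1949 at -1.90, Mir421 at -1.77 and Mir3597-3 at -1.66. Mir2964 had 0, 2, 11 and 1 reads in saline and none in METH rats. It met the rule through its saline reads alone, so its direction was fixed by how members were chosen, and saline rat 3 held 11 of the 14 reads. Its fitted log2 fold change depends on the prior count, is no bound, and was -3.15 without saline rat 3. The host Cercam had 116 to 212 reads per rat and a log2 fold change of 0.23 ± 0.21 (SE).

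Mir142, a microRNA gene of blood cells and microglia, had 1, 1, 0 and 7 reads in saline and 0, 0, 0 and 1 in METH rats, so saline rat 4 held most of them. Its log2 fold change was -1.07 without saline rat 4, and -4.22 without METH rat 4, when no METH read remained. Summed microglial markers were 229 to 268 CPM in saline and 187 to 233 CPM in METH rats, with 1 of 5 called lower. Saline rat 4 stood at 256 CPM there, below saline rat 2 at 268 CPM. Summed blood markers overlapped, at 117 to 225 CPM in saline and 112 to 208 CPM in METH rats, with none called. The part of either marker list in the Mir142 value was not tested. Mir421, inside the X-linked noncoding gene Ftx, had 0, 13, 3 and 14 reads in saline and 0, 3, 3 and 2 in METH rats, while Ftx had 97 to 158 reads per rat and a log2 fold change of -0.038. Mir1949, inside Matr3, had 3, 4, 1 and 1 reads in saline and 0, 0, 0 and 2 in METH rats, and a log2 fold change of -4.25 without METH rat 4, again with no METH read left. Mir3597-3 had 1, 1, 2 and 7 reads in saline and 0, 1, 1 and 1 in METH rats, and its log2 fold change was -0.715 without saline rat 4. Mir142, Mir421, Mir1949 and Mir3597-3 met the rule wholly or mainly through saline reads. Their direction, like that of Mir2964, thus follows in part from how members were chosen.

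Most members lay inside other genes. Of the 67 members, 54 overlapped in the GRCr8 annotation a gene that is not a microRNA, 38 of them a protein-coding gene, and 13 overlapped none, among them Mir760 and Mir22. On the same strand as such a gene lay 36 members, 7 lay only on the opposite strand, and strand was not compared for 11. The 27 overlapping genes that were listed and tested, whatever their strand, had log2 fold changes from -0.30 (Zbtb20) to 0.81 (Prr11, with 30 reads). Prr11 lies on the strand opposite to Mir301a, and Ska2, on the same strand as that locus, had -0.016. None of the 27 was called, and the lowest FDR was that of Meg3, given above.

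**Figure D5:**
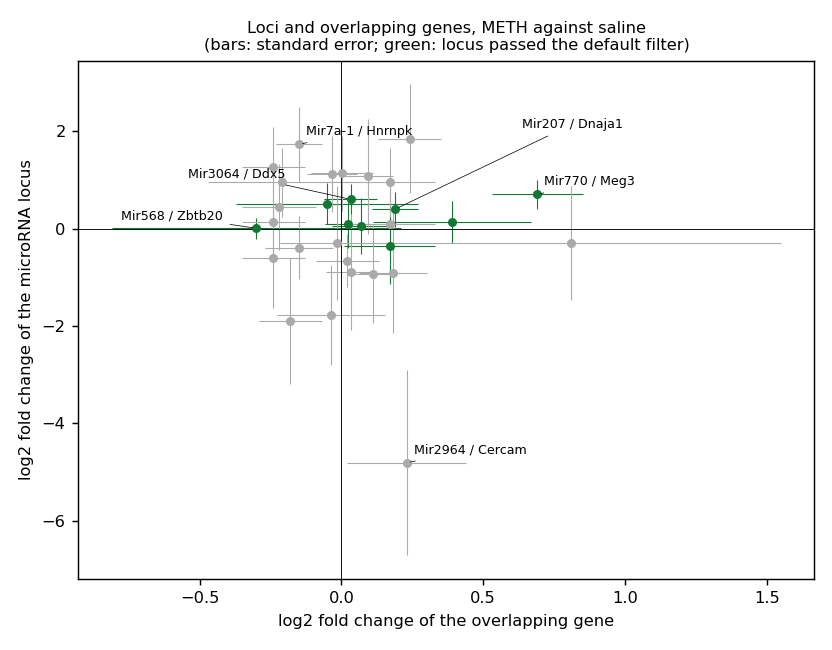
Log2 fold change of METH against saline of each member (vertical axis) and of each listed gene that overlaps it (horizontal axis), with standard errors as bars. Green marks members that passed the default expression filter of edgeR and grey those that did not. Mir770 and Meg3 share nearly the same value (0.70 and 0.69), while Mir3064 and Mir7a-1 lie away from Ddx5 and Hnrnpk, with wide bars.

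Hosts that carry several members allow a comparison within 1 transcript. Mir106b, Mir93 and Mir25 form a polycistron inside Mcm7, a replication helicase gene. Their log2 fold changes were -0.61, 0.14 and 1.27, with standard errors of 0.81 to 1.03, and Mcm7 had -0.24 ± 0.11 (SE). The summed reads of the 3 loci were 8, 12, 5 and 13 in saline and 10, 20, 7 and 16 in METH rats, with overlapping groups. Mir23b and Mir27b, both inside Aopep (listed as Npepo), had 76 and 84 reads and log2 fold changes of -0.36 and 0.10.

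The 3 genes of Mir124, a microRNA that is abundant in neurons, had 56 to 77 reads each and summed to 34, 32, 13 and 26 reads in saline and 26, 16, 17 and 36 in METH rats. Their summed level was 1.33 ± 0.536 and 1.223 ± 0.496 CPM (SD, n = 4 each), a difference smaller than the spread in either group. The 3 let-7 members summed to 0.9189 ± 0.417 and 1.151 ± 0.773 CPM, and the 2 Mir138 members, from separate chromosomes, to 1.798 ± 0.481 and 2.296 ± 0.868 CPM. None of these families separated the groups.

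Some loci were at 0 next to members with reads. Mir3597-1, Mir3597-2 and Mir3597-3 overlap the Mir9 genes Mir9-1, Mir9-2 and Mir9-3 on the opposite strand, and all 3 Mir9 genes were at 0 in every rat although Mir3597-2 had 104 reads. Likewise Mir24-1 was at 0 beside Mir3074, Mir219-2 beside Mir2964 and Mir126 beside Mir3567. The library kit does not mark strand, so reads of such pairs cannot be told apart, and the counter's rule for reads on 2 features is not given in the sources used here. The 8 listed loci of the miR-183 and miR-200 families (Mir183, Mir96, Mir182, Mir200a, Mir200b, Mir200c, Mir429 and Mir141) had 0 reads in every rat. No precursor signal was thus counted for them in either group, and the reason for these zeros was not tested.

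The genes that make and use microRNAs were close to even between groups. Of 41 genes on a list of processing and effector genes 33 were listed and 32 tested with the default filter, and none was called. An unadjusted p under 0.05 was found for 3, 2 of them higher and 1 lower. The shares over all genes in the second fit were 6.2% and 4.71%, so their number is near that background. The log2 fold changes were 0.10 for Drosha, the nuclear nuclease, and -0.036 for its partner Dgcr8, -0.0072 for the exporter Xpo5, -0.038 for Ago1 and -0.16 for Ago2. Dicer1 was not analysed here. The 3 with an unadjusted p under 0.05 were Ddx17, a Drosha cofactor, at 0.26 (edgeR FDR 0.338), Tarbp2, a Dicer partner, at 0.25 (FDR 0.401) and Xrn1, an exonuclease, at -0.47 (FDR 0.345).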

How the data were processed

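Striatal poly(A) mRNA of 8 rats was sequenced as paired-end reads from TruSeq RNA v2 libraries, a kit that does not mark strand. The authors deposited raw counts in 1 column per rat, made by adapter removal (Cutadapt 1.18), alignment with STAR 2.7.0e to the rn6 genome and featureCounts (Subread 1.6.4), per the study's methods and the submitters' processing notes. The annotation, strand setting and handling of reads on several genes are not given in the sources used here. The small RNA libraries were not analysed here.

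Counts were scaled by TMM and tested in R 4.3.3 with the edgeR 4.0.16 quasi-likelihood test and Benjamini-Hochberg adjustment, with filterByExpr (minimum count 10) and again on the 13291 genes with a summed count of 10 or more. Log2 CPM used a prior count of 2. Exact permutation tests used all 70 labellings. DESeq2 1.42.0 and limma 3.58.1 were alternatives. Members were selected on their counts, and members and lists were chosen with earlier results of these data known. Named are the 12 members with the most reads, the 5 highest and 5 lowest fold changes, members with groups apart and at least 40 reads, those at the edge of the rule, those sharing a cluster or host with these, and their hosts. Mir124, Mir138, Mir3597, let-7 and the Mcm7 and Aopep loci were named after their values were seen. Neighbours, lengths and sequences are from RefSeq GRCr8, where all 67 members were found, 3 by an older symbol. Marker and processing lists were hand-written.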

Additional observations from a re-analysis of the deposited data

Results flagged for a closer look

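The named members and their sum were examined in each group of 4 rats, members on the log2 CPM scale. In 6 of these 54 groups (11.1%) a single rat stood far from the other 3, where chance gives about 1 in 20 for continuous values. Members with a few reads are often tied between rats, which forces large gaps, so no excess over chance is shown. The measure is the gap between that rat and its nearest neighbour divided by the range of the group. METH rat 1 stood apart in 3 members, with a gap of 0.861 of the range in Mir770, 0.857 in Mir207 and 0.869 in Mir3597-3, and it was the low rat each time. Saline rat 4 stood apart in Mir496 (0.901). METH rat 4 stood apart in Mir1949 (1) and Mir142 (1), where the other METH rats had no reads. Apart from Mir770 and Mir207, these rest on a few reads each.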

How the results depend on the processing

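Across all genes, 62 were called with all rats and the default filter, 191 by DESeq2, 180 by the likelihood ratio test, 176 by the exact test, 37 with the replicate block and 12 with an absolute log2 fold change above 1.5. Leaving out each rat gave 37 to 70 genes and 0 to 1 members in either fit, the 1 being Mir770 without METH rat 1. Every alternative with all rats called 0 members. The number of loci with reads was 95 at a summed count of 5, 48 at 20, and 62 to 65 with a rat left out. The replicate block was not used as the main design, since same-numbered rats are different animals and their deviations correlated at only 0.01, -0.185, -0.201 and 0.036.

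Without Mir770 the summed CPM was 61.82 in saline and 66.59 in METH rats. The log2 fold change of Mir568 turned to -0.0123 with upper-quartile scaling, -0.0303 with total counts, -0.0294 with limma-voom and -0.0225 with the replicate block, and that of Mir431 to -0.00773 with total counts. With a rat left out, the sign turned in Mir760 (-0.134 to 0.358), Mir6315 (-0.201 to 0.0804), Mir22 (-0.0544 to 0.126), Mir568 (-0.195 to 0.0806), Mir433 (-0.529 to 1.27), Mir431 (-1.07 to 1.92) and Mir339 (-0.0941 to 2.09). The cause was not tested. The tests of Meg3 were added after its values were seen. With 48 of 67 members under 100 reads, most single loci rest on few reads. The part of depth in the lack of calls was not tested.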
